A study of Rattus norvegicus with 23 samples.

Results

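The cytoplasmic ribosomal protein genes were read from the array's gene symbols. A probe belonged to the set if its symbol began with Rpl or Rps and a digit, or with Rplp or Rpsa, and was not an S6 kinase (Rps6k). The set held 70 probes of 68 genes, 44 for the large and 26 for the small ribosomal subunit, among 5088 probes in all. Of these 5088, 4423 carried 1 gene symbol and stood for 4153 genes. Rpl30 and Rpsa each had a pair of probes. Entrez identifiers of 68 of the 70 probes matched RefSeq and no symbol had changed, and 3 of the matched genes are annotated as pseudogenes (Rps27a-ps1, Rps28-ps1 and Rps4x-ps9).

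The arrays compared RNA of lumbar dorsal root ganglia (DRG; L4 and L5) of Long-Evans rats whose sciatic nerve had been transected at postnatal day 20 to 24 with RNA of intact ganglia. The lesioned sample carried Cy5 and the intact sample Cy3 on every array. There were 3 arrays at each of 4, 8, 12, 18, 24, 48 and 148 h and 2 arrays at 296 h, 23 in all, and the second array of the last group is titled 296 h but has 294 h as its time label. The sample labels call the material cultured DRG cells, and the labelling text speaks of cAMP-treated cultures, whereas the treatment text describes ganglia taken from operated animals. Here the lesion and time labels were used. Neither the number of animals behind an array nor the source of the intact RNA is given, so the p-values reflect the spread among these arrays alone, which may be technical. Each value is a ratio of lesioned over intact RNA, given on the log2 scale, so it gives no level within a sample and the tissue could not be checked by how strongly its markers were expressed. In a ganglion of mixed cells, fewer cells of a type and less RNA per cell cannot be told apart.

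A ribosome is built from a small subunit, which binds the mRNA and decodes it, and a large subunit, which joins the amino acids. Each ribosomal protein gene contributes to one of them, and their mRNAs are among the most abundant of the cell and are usually made in matched amounts. Many begin with a C followed by a run of pyrimidines (the terminal oligopyrimidine motif), through which growth signals control their translation. Injured sensory neurons make new protein in the cell body and in the axon while they regrow.

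RefSeq start windows on the rat build GRCr8 were found for 54 of the 68 genes. Each window held 15 bases before the annotated start and 15 bases from it on, read on the gene's own strand only. A C at the start followed by at least 4 further C or T stood in 21 of the 54 windows (38.9%), in 14 of 35 large subunit genes and in 7 of 19 small subunit genes. The same letters stood in 2.63% of all 33469 RefSeq windows and in 2.82% of the 3551 windows of genes with a probe. The following windows belong to the genes whose ratios are described in most detail, in lower case with the unbroken run of C or T from the start in capitals, and 2 of the 7 do not begin such a run of 5 or more.
Rps27, chr2:177964592-177964621, minus strand: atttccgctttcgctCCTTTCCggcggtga
Rps27l, chr8:76443643-76443672, plus strand: gtttattcatttgtcattatttgtggtgtc
Rps18, chr20:4933730-4933759, plus strand: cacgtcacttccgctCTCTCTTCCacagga
Rpl22, chr5:168117946-168117975, plus strand: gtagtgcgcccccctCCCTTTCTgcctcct
Rplp0, chr12:46718376-46718405, minus strand: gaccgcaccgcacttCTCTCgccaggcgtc
Rplp1, chr8:71290858-71290887, minus strand: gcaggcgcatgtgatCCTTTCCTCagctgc
Rplp2, chr1:205975906-205975935, plus strand: cctttcgccgccggaCgccgccgaggtcgc
The window of Rps27, a zinc-binding protein of the small subunit, began with such a run and that of its paralog Rps27l did not. A window without the run says only that these letters were not at the annotated start.

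The ribosomal protein probes were measured on nearly every array. On 17 arrays (full arrays) between 4945 and 5011 probes had a value, and all 70 members were among them. The other 6 arrays (sparse arrays: 48 h replicates 2 and 3, all of 148 h, and 296 h replicate 2) measured between 2063 and 4353 probes, yet 67 to 70 members. On 148 h replicate 1, 40.5% of all probes and 95.7% of the members had a value. The standard deviation (SD) of all probes on an array was 0.506 to 0.913 log2 units if full and 1.22 to 1.61 if sparse. Because all arrays at 148 h were sparse, time and array class cannot be told apart there.

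Within an array the ribosomal protein ratios lay close together. Their SD was 0.209 to 0.444 on the full arrays and 0.346 to 0.581 on the sparse arrays, below the SD of all probes on 23 of 23 arrays. The 129 other probes whose names begin with 8 or 9 also lay below all probes on 23 of 23 arrays, and the members lay below these on 22. The SD of all probes was 1.39 to 4.53 times that of the members, with a median of 2.56. Spread depends on signal, and no intensities were used here. Across the members, Spearman correlations between arrays had a median of 0.28 and a range of -0.13 to 0.64, and 241 of 253 pairs were positive. Members share each array, so this is a description of the ratios and not of independent points.

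**Figure D1:**
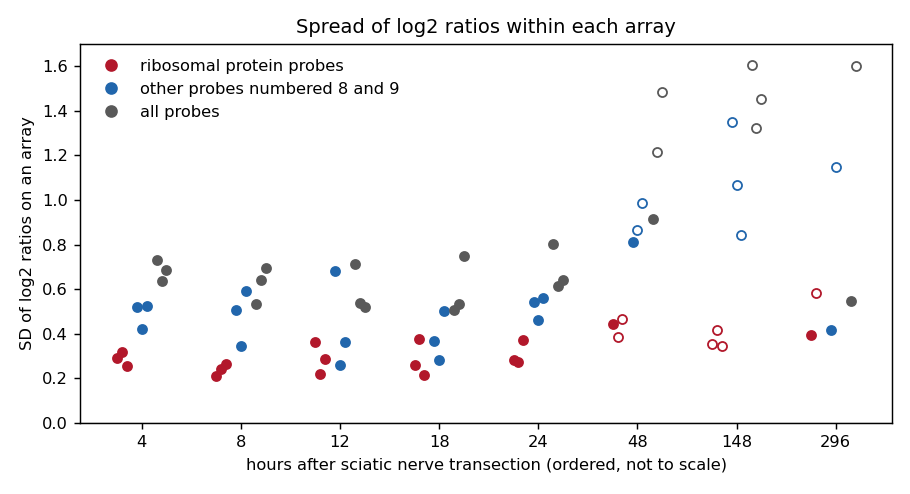
Standard deviation of log2 ratios (lesioned over intact) on each of the 23 arrays by hours after the lesion, for the ribosomal protein probes (red), the other probes numbered 8 and 9 (blue) and all probes (grey). Filled points are full arrays and open points sparse arrays. On every array the red point lies below the grey one, and it stays under 0.6 where all probes exceed 1.2.

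The median ribosomal protein ratio stayed within 0.25 log2 units of 0 on every array. The mean of the array medians was -0.024 ± 0.014 (SD, n = 3) at 4 h, 0.0034 ± 0.035 (n = 3) at 8 h, 0.069 ± 0.148 (n = 3) at 12 h and -0.0011 ± 0.047 (n = 3) at 18 h. It was -0.090 ± 0.087 (n = 3) at 24 h, 0.048 ± 0.047 (n = 3) at 48 h, 0.163 ± 0.058 (n = 3) at 148 h and 0.141 ± 0.065 (n = 2) at 296 h. The large SD at 12 h came from replicate 1, with a median of 0.236 against 0.017 and -0.046 on the other arrays of that time. As the average of the means of each time, the late times (48, 148 and 296 h) stood at 0.117 and the early times (4, 8 and 12 h) at 0.016. The corresponding medians of all probes were 0.028 and 0.0093. The members' median lay above that of all probes on 7 of 8 late arrays and on 4 of 9 early arrays. The single late and early arrays overlapped, from -0.0051 to 0.211 late and from -0.046 to 0.236 early.

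Probe names on this array consist of a number, a letter and a number, and 63 of the 70 members carry 8 or 9 as their first number. What that number stands for is not given in the sources used here. The medians of the 129 other probes with these numbers stood at 0.310 late and 0.077 early. Their difference (0.232) was larger than that of the members (0.101). All 129 were measured on the early arrays but only 66 to 111 on the 6 sparse late arrays, so the late and early medians rest on different probes. On the full late arrays the medians were 0.250 (48 h replicate 1, 127 probes) and 0.113 (296 h replicate 1, 129 probes). The members lay below these other probes on 21 of 23 arrays. The part of probe position in the members' values was not tested.

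**Figure D2:**
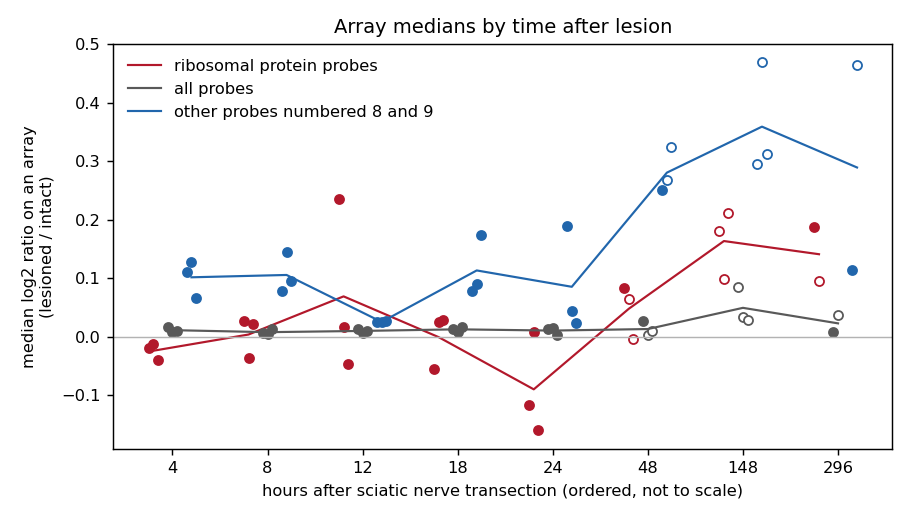
Median log2 ratio (lesioned over intact) on each array by hours after the lesion, for the ribosomal protein probes (red), all probes (grey) and the 129 other probes numbered 8 and 9 (blue). Points are arrays, open where sparse, and lines join the means of a time. The red line reaches 0.163 at 148 h while all probes stay near 0 and the blue line reaches 0.359. The open blue points rest on only 66 to 111 of the 129 probes.

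Large and small subunit probes moved nearly together. The large subunit median lay below the small subunit median on 20 of 23 arrays, by little. The difference, large minus small, was 0.0022 ± 0.0077 (SD, n = 3) at 4 h, -0.046 ± 0.024 (n = 3) at 8 h, -0.079 ± 0.059 (n = 3) at 12 h and -0.031 ± 0.067 (n = 3) at 18 h. It was -0.071 ± 0.020 (n = 3) at 24 h, -0.0998 ± 0.088 (n = 3) at 48 h, -0.012 ± 0.049 (n = 3) at 148 h and -0.054 ± 0.060 (n = 2) at 296 h. No test was made of this difference, since the members share arrays. It shifted by -0.014 between the early and the late times. In late minus early, the 43 tested large subunit probes had a median log2 difference of 0.117 and 32 were above 0, and the 25 small subunit probes had a median of 0.074 and 14 were above 0. In the mean lesion effect over the 8 times the order was the other way, with medians of 0.022 for the large and 0.107 for the small subunit.

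**Figure D3:**
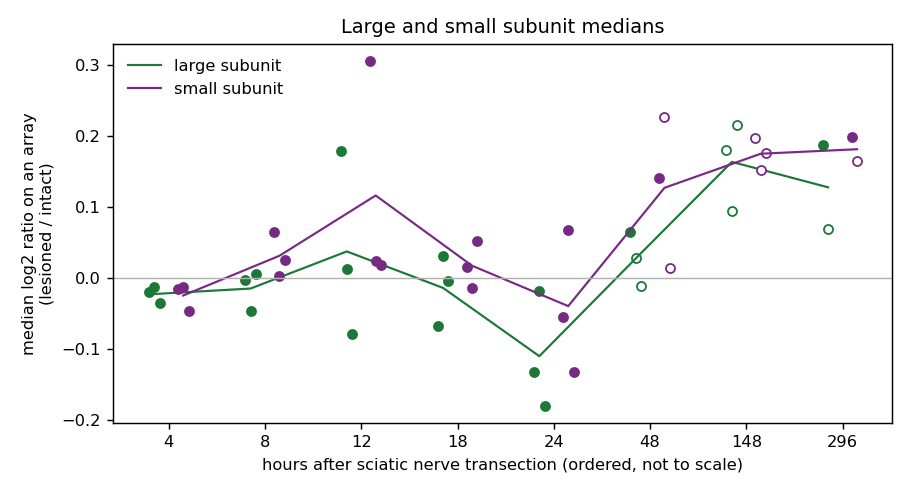
Median log2 ratio (lesioned over intact) of the large subunit probes (green) and the small subunit probes (purple) on each array by hours after the lesion. Points are arrays, open where sparse, and lines join the means of a time. The green line lies below the purple one from 8 h on, most widely at 48 h, and both are highest at 148 or 296 h.

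The question at each time was whether ribosomal protein mRNA differed between lesioned and intact ganglia. A ratio at a single time keeps any dye effect of a probe, as the dyes were never exchanged. For single times, rose and fell mean a log2 ratio above and below 0. No member passed the threshold (limma, Benjamini-Hochberg adjusted p of 0.05 over all probes tested) in the first 24 h. Of all probes tested, 0.538% were called at 4 h, 0.42% at 8 h, 0.139% at 12 h, 0.379% at 18 h and 1.42% at 24 h, so few calls of any kind were made. At an unadjusted p under 0.05, limma gave 4, 3, 6, 3 and 9 of the 70 members at these times, beside 11.4%, 8.67%, 7.33%, 6.92% and 13.4% of all probes. Later, 2 of 70 members were called at 48 h (2.86%, against 15.6% of all probes), 9 of 70 at 148 h (12.9% against 28.7%) and 7 of 68 at 296 h (10.3% against 8.65%). Without 296 h replicate 2, 0 members were called at 296 h, and without 148 h replicate 1, 4 at 148 h. The calls also rest on the equal weighting of the arrays. Array weights follow how far the values of an array lie from the means of its time, not the SD of the array. The 2 arrays of 296 h thus had the same weight (0.390), the full one (SD 0.549) as well as the sparse one (SD 1.60). With these weights 0 members were called at 48, 148 and 296 h (3.96%, 8.75% and 0.106% of all probes). At 4 and 8 h 0 were called (1.85% and 1.26%), and limma called 3 at 12 h (3.61%), 2 at 18 h (2.07%) and 5 at 24 h (6.19%).

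At 48 h 2 of 26 small and 0 of 44 large subunit probes were called (15.6% of all probes). At 148 h these were 6 of 26 small and 3 of 44 large (28.7% of all probes). At 296 h they were 2 of 25 small and 5 of 43 large (8.65% of all probes). The difference between the subunits was not tested. Rps18, at the head of the small subunit, rose by log2 0.53 ± 0.27 (SD, n = 3, limma adjusted p = 0.0206) at 48 h and by 0.71 ± 0.05 (n = 3, limma adjusted p = 0.00161) at 148 h. Its call at 48 h was lost without replicate 1 or 2 of that time, and its call at 148 h passed in all 23 refits. Rps3 and Rps3a, which lie where the mRNA enters and leaves the small subunit, rose at 148 h by 0.54 ± 0.27 and 0.57 ± 0.33 (n = 3 each). Both calls were lost without 148 h replicate 1, and that of Rps3a also without replicate 3. Rps6, the small subunit protein that S6 kinases phosphorylate, rose by 0.46 ± 0.24 (n = 3) at 148 h and by 0.69 ± 0.03 (n = 2) at 296 h, where the call was lost in 9 of 23 refits that left out an array. The Rps6 call at 148 h was lost without replicate 1 or 2 of that time. Rps27l rose by 0.59 ± 0.45 (n = 3) at 148 h and by 0.97 ± 0.10 (n = 2) at 296 h. Without 148 h replicate 2 or 296 h replicate 2, respectively, the Rps27l call at that time was lost. The pseudogene Rps4x-ps9 was called lower at 48 h (-1.97 ± 0.89, n = 3) and 148 h (-1.12 ± 1.07, n = 3), the latter call being lost in 15 of 23 refits that left out an array, with values from -1.72 to -0.73. The mean of Rps4x-ps9 over the early times was already -0.77. A pseudogene probe may share sequence with its parent gene, so its source is uncertain.

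Among large subunit genes, Rpl14 (0.52 ± 0.24, n = 3) and Rpl22 (0.65 ± 0.21, n = 3) rose at 148 h. The Rpl14 call was lost without 148 h replicate 1 and the Rpl22 call without 148 h replicate 2. Rpl22, an RNA-binding protein of the subunit surface, also rose at 296 h (0.70 ± 0.34, n = 2), as did Rpl4 (0.61 ± 0.12, n = 2), a core protein of the peptide exit tunnel. Leaving out single arrays ended the Rpl22 call at 296 h in 15 of 23 refits, and the Rpl4 call was lost without replicate 1 or 2 of that time. Probe 51C03 of Rpl30 was called at 296 h with a mean of 1.71 ± 2.11 (n = 2), from 0.22 on replicate 1 and 3.20 on replicate 2. The other Rpl30 probe, 9B07, measured -0.0034 and -0.38 on these arrays, so the probes disagreed and the call rested on 1 array. It was lost without replicate 2, at which the value was 0.22.

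Among the stalk proteins, Rplp0 and Rplp2 were called lower and Rplp1 was not called. Rplp0, Rplp1 and Rplp2 form the stalk of the large subunit that recruits the translation factors. Rplp0 measured -1.02, 0.09 and -0.60 at 4 h, -0.12, -0.38 and -0.36 at 8 h, -0.50, -0.28 and -0.54 at 12 h, and -0.83, -0.02 and -0.03 at 18 h. It measured -0.83, -0.54 and -1.14 at 24 h, -0.57, -1.06 and -0.19 at 48 h, -1.13, -0.79 and 0.0090 at 148 h, and -1.20 and -1.26 at 296 h. Only 2 of the 23 arrays were above 0. The mean of Rplp0 over the early times (4, 8 and 12 h) was already -0.41. At 296 h its ratio was below 0 past the threshold (-1.23 ± 0.04, SD, n = 2, limma adjusted p = 0.0193). That call was lost without 296 h replicate 2.

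Rplp2 measured 0.12, -0.18 and -0.21 at 4 h, -0.23, -0.03 and -0.31 at 8 h, -0.13, -0.20 and -0.17 at 12 h, and -0.12, -0.15 and -0.02 at 18 h. It measured -0.17, -0.22 and -0.06 at 24 h, 0.08, -0.29 and 0.16 at 48 h, -0.42, -0.51 and -0.20 at 148 h, and -0.52 and -0.54 at 296 h. Of the 5 arrays at 148 and 296 h, 4 lay below every other array and 1 (-0.20) lay among them. Rplp2 fell at 148 h (-0.38 ± 0.16, n = 3, limma adjusted p = 0.0385) and at 296 h (-0.53 ± 0.01, n = 2, limma adjusted p = 0.049), and the latter call was lost in 18 of 23 refits that left out an array. The Rplp2 call at 148 h was lost without replicate 1 or 2 of that time. Rplp1, the partner of Rplp0 and Rplp2, passed at no time and ranged from -0.45 to 0.25 over the arrays.

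**Figure D4:**
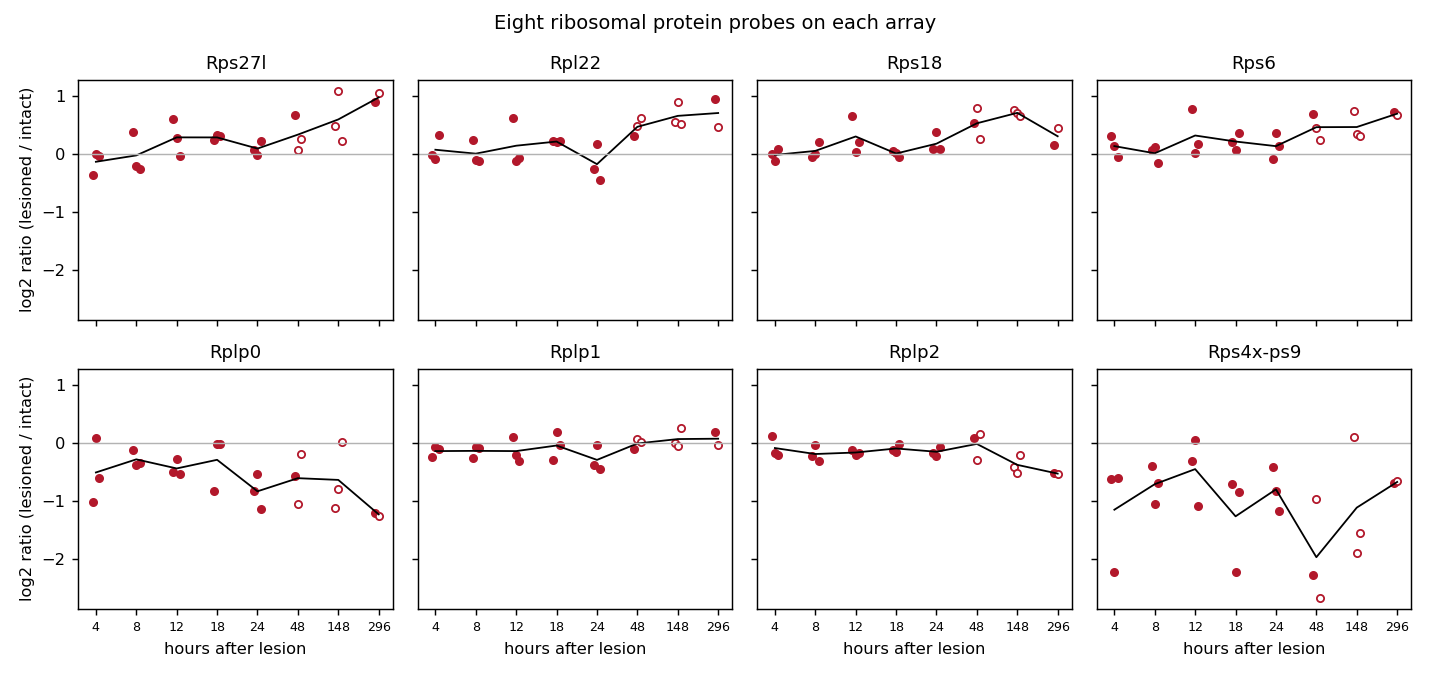
Log2 ratio (lesioned over intact) of 8 ribosomal protein probes on each array by hours after the lesion. Points are arrays, open where sparse, and lines join the means of a time. The means of Rps27l, Rpl22, Rps18 and Rps6 are highest at 148 or 296 h, those of Rplp0 and Rplp2 are lowest at 296 h, Rplp1 ranges from -0.45 to 0.25, and Rps4x-ps9 lies below 0 on 21 of 23 arrays.

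Late minus early compared the mean of 48, 148 and 296 h with the mean of 4, 8 and 12 h, in which a constant dye effect of a probe cancels. Array class does not cancel, since 6 of the 8 late arrays were sparse and the early arrays were all full. Of 68 members tested, 5 were higher late than early and 0 lower (7.35%), against 12.2% of all 2327 probes called in either direction and 7.39% called higher and 4.77% lower. The median difference over the members was 0.11, against 0.037 over all probes, and 46 of 68 members were above 0, against 53.7% of all probes. For none of the members did all late arrays lie outside the range of the early arrays, which 0.774% of all probes did upward and 0.344% downward. In the moderated F-test of equal means at all times, 0 of 68 members passed, against 5.16% of all probes, and 6 members had an unadjusted p under 0.05 in limma, beside 21.6% of all probes.

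Rps27l measured -0.36, -0.01 and -0.04 at 4 h, 0.38, -0.21 and -0.25 at 8 h, 0.60, 0.28 and -0.03 at 12 h, and 0.23, 0.32 and 0.30 at 18 h. It measured 0.07, -0.02 and 0.22 at 24 h, 0.67, 0.07 and 0.25 at 48 h, 0.47, 1.09 and 0.22 at 148 h, and 0.90 and 1.04 at 296 h. All 8 late arrays were above 0 and the range overlapped that of the early arrays at 12 h and 8 h. The late mean was 0.63 and the early mean 0.040, a difference of 0.59 ± 0.15 (SE, limma adjusted p = 0.015). That is 1.51-fold, and the call was lost without 296 h replicate 2. Rps27, the paralog, had too few arrays at 296 h to be tested in this contrast. It measured 0.13, -0.02 and 0.26 at 148 h and 0.18 on the array of 296 h that had a value, and its mean was 0.11 late and -0.13 early.

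Rpl22 measured -0.02, -0.09 and 0.32 at 4 h, 0.23, -0.10 and -0.12 at 8 h, 0.62, -0.12 and -0.08 at 12 h, and 0.21, 0.20 and 0.23 at 18 h. It measured -0.26, 0.18 and -0.44 at 24 h, 0.30, 0.48 and 0.62 at 48 h, 0.55, 0.90 and 0.51 at 148 h, and 0.95 and 0.46 at 296 h. The lowest late array was at 0.30, and among the early arrays the 12 h replicate 1 (0.62) and a 4 h array (0.32) reached that range. The difference was 0.54 ± 0.14 (SE, limma adjusted p = 0.0176), and it passed in all 23 refits that left out an array.

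Rps18 measured -0.01, -0.13 and 0.08 at 4 h, -0.05, 0.0038 and 0.20 at 8 h, 0.65, 0.04 and 0.21 at 12 h, and 0.05, 0.01 and -0.05 at 18 h. It measured 0.08, 0.37 and 0.08 at 24 h, 0.53, 0.80 and 0.25 at 48 h, 0.76, 0.70 and 0.66 at 148 h, and 0.16 and 0.45 at 296 h. The 3 arrays of 148 h all lay above the early arrays, the lowest of them (0.658) just above 12 h replicate 1 (0.649). The difference was 0.40 ± 0.11 (SE, limma adjusted p = 0.0267), and the call was lost in 5 of 23 refits that left out an array. The array that stood highest among the early ones, here as for Rpl22 and Rps27l, was 12 h replicate 1, whose members were high in general.

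Rpl37l1, a paralog of Rpl37, and Rps29, a zinc-binding small subunit protein, showed smaller differences with narrow spreads. The early arrays of Rpl37l1 lay between -0.28 and 0.15 and the late arrays between 0.11 and 0.42, a difference of 0.31 ± 0.09 (SE, limma adjusted p = 0.0346). Those of Rps29 lay between -0.13 and 0.08 early and between 0.07 and 0.39 late, a difference of 0.30 ± 0.09 (SE, limma adjusted p = 0.0452). Leaving out single arrays ended the call of Rps29 in 16 of 23 refits and that of Rpl37l1 in 9. Of the late arrays, 2 of Rpl37l1 and 1 of Rps29 lay within the early range.

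The calls in late minus early depended on which arrays were used and on their weighting. With array weights the 5 differences were between 0.287 and 0.622 and 0 passed, with adjusted p of 0.0546 for Rps27l, 0.0638 for Rps18, 0.0751 for Rpl22 and 0.175 for Rpl37l1 and Rps29 (limma with array weights called 6.66% of all probes). With full arrays only, 148 h drops out and 1 array each is left at 48 and 296 h, so this is a different contrast. The differences were then 0.75 for Rps27l, 0.55 for Rpl22 and 0.23 for Rps18. Leaving out 296 h replicate 2 reduced the 5 calls to 1.

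**Figure D5:**
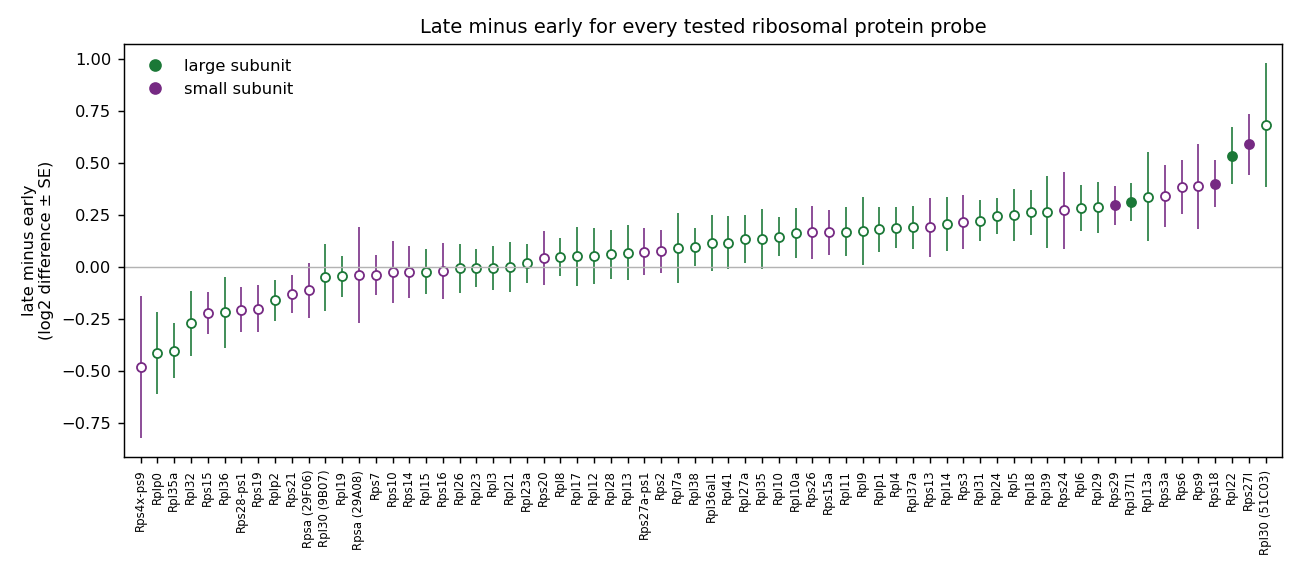
Difference in log2 ratio between the late (48, 148 and 296 h) and early (4, 8 and 12 h) times for each of the 68 tested ribosomal protein probes, ordered by size, with the standard error of the limma fit. Green is large and purple small subunit, and filled points passed the threshold. Rps27l, Rpl22, Rps18, Rpl37l1 and Rps29 are filled, and the highest point, Rpl30 probe 51C03 at 0.69, is not.

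Beyond these 5, the highest differences did not pass. Rpl30 probe 51C03 was at 0.69 ± 0.30 (limma adjusted p = 0.138) and rested on the single array at 296 h given above. Rps6 was at 0.38 ± 0.13 (limma adjusted p = 0.056), with late arrays between 0.24 and 0.73. The lowest were Rps4x-ps9 at -0.48 ± 0.34, Rplp0 at -0.41 ± 0.20 (limma adjusted p = 0.173), Rpl35a at -0.40 ± 0.13 (limma adjusted p = 0.056) and Rpl32 at -0.27. Rplp2 and Rplp1 stood at -0.16 and 0.18 and did not pass.

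The paralog and duplicate probes gave mixed values. The probes of Rpsa, the laminin-receptor-like small subunit protein, differed by -0.04 (29A08) and -0.11 (29F06) in late minus early, and their mean effects of -0.21 and 0.07 did not pass. Rpl36al1 was at 0.12, Rps27a-ps1 at 0.074 and Rps28-ps1 at -0.20 in late minus early, none past the threshold.

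The mean lesion effect over the 8 times used every array but keeps any dye effect of a probe, as the dyes were never exchanged. Of 68 members, 32 were called (47.1%, against 48.5% of all 2327 probes), 23 higher and 9 lower. These were 16 of 43 large and 16 of 25 small subunit probes. Over all probes 22.6% were called higher and 25.9% lower. Highest among the small subunit genes were Rps9 (0.46 ± 0.09, SE), Rps24 (0.36 ± 0.08) and Rps6 (0.30 ± 0.05), and among the large subunit genes Rpl14 (0.36 ± 0.06) and Rpl22 (0.26 ± 0.06). Rps27l (0.30), Rps10 (0.29), Rps18 (0.26), Rpl13a (0.23) and Rps3a (0.22) followed, and 13 others between 0.10 and 0.18 (Rps16, Rpl11, Rpl21, Rpl5, Rps3, Rps20, Rpl6, Rpl18, Rpl4, Rps28-ps1, Rpl23, Rps29 and Rpl24). Of the 23, 10 turned below 0 when arrays were centred on the other probes numbered 8 and 9. The 9 called lower were Rps4x-ps9 (-1.02 ± 0.15), Rplp0 (-0.61 ± 0.08), Rps2 (-0.29 ± 0.04), Rpl13 (-0.24), Rplp2 (-0.20), Rpl7a (-0.18), Rpl26 (-0.16), Rps7 (-0.16) and Rps19 (-0.13). With array weights limma called 20 members, all among these 32 (42.3% of all probes called). Leaving out single arrays ended the call of Rpl7a in 15 of 23 refits and that of Rpl13a in 13 of 21.

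The ratios were also set beside the start windows, as a description with no test. The 20 tested probes of genes with a C and the pyrimidine run at the annotated start had a median late minus early of 0.16, from -0.41 to 0.54, and 2 passed. The 33 others include genes whose run begins with T, such as Rpl27a and Rps24. They had a median of 0.12, from -0.22 to 0.59, and 1 passed. Of all probes tested in late minus early, 12.2% passed. Rpl37l1 and Rps29, which also passed, had no start window and belong to neither group.

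Other genes of the translation machinery were read from lists chosen with earlier results of these data known. Fau, which encodes a small subunit protein fused to a ubiquitin-like one and lies outside the naming rule, was lower late than early (-0.59 ± 0.10, SE, limma adjusted p = 0.00138), and it fell at 148 h (-0.52) and 296 h (-0.63). Rack1, a scaffold on the small subunit, rose at 148 h by 0.62 (limma adjusted p = 0.00538). Of 3 mitochondrial ribosomal protein probes 0 passed in late minus early, with a median of 0.27. Of 8 initiation factor probes 1 was higher, Eif2s1, the subunit of the initiation factor that stress kinases phosphorylate (1.46 ± 0.32, limma adjusted p = 0.00811), and their median was 0.10. Of 5 elongation factor probes 0 passed in late minus early (median 0.048), and in the mean effect Eef1d was higher (0.30) and Eef1a2 (-0.79), Eef2 (-0.90) and Eef1a1 (-0.24) were lower. Of 5 ribosome biogenesis probes 2 were higher, for the nucleolar proteins Nolc1 (0.85, limma adjusted p = 0.0154) and Npm1 (probe 7E03, 1.02, limma adjusted p = 0.0482), with a median of 0.28. The other Npm1 probe, 6G03, had too few arrays at 296 h for this contrast. It measured -0.57 at 48 h, -0.14 at 148 h and 0.31 on 1 array at 296 h. Probe 7E03 measured 0.84, 1.565 and 0.92 at these times, so the probes disagreed at 48 and 148 h. Of 5 probes for S6 kinases and growth regulators 0 passed in late minus early, with a median of 0.020. In the mean effect Rps6kb1, an S6 kinase, was higher on probe 52F12 (2.24, limma adjusted p = 8.46e-13), with log2 ratios of 1.59 to 2.94 that passed at each of the 8 times. Its other probe, 34G05, was measured on too few arrays for the mean effect. From 4 to 48 h probe 34G05 measured -0.26, 0.0061, 0.18, -0.19, -0.22 and 0.58 and passed at none of these times. The probes of Rps6kb1 thus disagreed.

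Markers of several cell types moved between the same early and late times. For macrophages, 9 of 17 listed genes were on the array, 3 probes could be tested, and C1qb (2.00) and Lyz2 (1.74) were higher late than early, with a median of 1.74. The other, Ctss, stood at 0.021 and did not pass. For proliferating cells, 2 of 3 tested probes were higher (Cdk1 1.21 and Pcna 0.86). For sensory neurons 5 of 20 tested probes were lower, with a median of -0.42. For myelinating Schwann cells 2 of 5 were lower (Mbp -0.93 and Prx -0.65), with a median of -0.21. Mal went the other way (0.87) and did not pass. At 148 h Mal (2.24) and Cnp (0.60) were called higher and Mbp (-0.72) lower. For fibroblasts and matrix 2 of 8 were higher (Dcn 0.76 and Mgp 0.85), with a median of 0.24. The Col1a1 probes went the other way (-0.45 and -0.16) and did not pass. No probe passed among 6 for satellite glia (median -0.026), 4 for endothelial cells (-0.033) and 1 for skeletal muscle (0.23). Their part in the ribosomal protein ratios was not tested.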

How the data were processed

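Dorsal root ganglion RNA was hybridised to 23 two-colour spotted oligonucleotide arrays. The authors deposited 1 linear ratio per probe and array, with array medians near 1. For the scanner, the background correction and the normalization, details are not given in the sources used here. Without intensities, precision is limited by the number of arrays. Lesioned over intact was assumed as the direction of the ratio, from the dye labels. Probe symbols came from the platform annotation, with 2 probes carrying several symbols and 663 none. Samples were grouped by their time labels.

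Ratios were converted to log2 and modelled in limma 3.58.1 (R 4.3.3), giving each time its own mean over all 23 arrays. Probes with at least 2 arrays at a time were tested, and the 2327 probes reaching that number at all times entered the mean effect, late minus early and the F-test. Tests were two-sided and adjusted by the Benjamini-Hochberg method over all probes tested (threshold 0.05). The fit was tested on simulated data. Arrays lacking over 200 probes were called sparse. The members, lists and rules were chosen with earlier results of these data known. Named were members past the threshold in a joined test, at most 4 in each direction at each time, the 4 highest and lowest in late minus early, the paralogs, duplicated genes, Rps6, Rpsa and the stalk proteins. Alternatives were array weights, scaling, centring, full arrays only, other filters, probe means, the methods' t-test, single-time fits, a replicate block and leaving out each array. Start windows came from RefSeq (GRCr8).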

Additional observations from a re-analysis of the deposited data

Results flagged for a closer look

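The 5 probes whose log2 ratio differed between the early and the late times by limma's test of the difference itself were Rps27l (0.592), Rpl22 (0.536), Rps18 (0.402), Rpl37l1 (0.312) and Rps29 (0.297), all higher late. Each is a difference between time groups under the same contrast of lesioned with intact ganglia. In every case some early array lay inside the range of the late arrays.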

How the results depend on the processing

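Under array weights the members past the threshold numbered 3 at 12 h, 2 at 18 h, 5 at 24 h, 0 at 48, 148 and 296 h, 20 in the mean effect and 0 in late minus early. Scaled to equal median absolute log2 ratio, 11 passed at 48 h, 0 at 148 h, 0 at 296 h, 3 in the mean effect and 0 in late minus early. The median ratio was then -0.252 at 24 h, 0.125 at 48 h and 0.048 at 148 h. Large minus small was -0.105 at 8 h, -0.112 at 24 h, -0.373 at 48 h and -0.071 in late minus early. With probes measured on every array 8 passed in late minus early. Averaging probes per gene, 4 passed at 296 h and large minus small was -0.091 at 24 h. With full arrays only 2 passed at 24 h, 0 at 296 h, 14 in the mean effect and 0 in late minus early. The methods' t-test gave 6, 6, 10, 3, 6 and 7 members from 4 to 48 h, and 10 and 9 at the last 2 times, without adjustment (8.73%, 8.81%, 10.5%, 7.86%, 11.3%, 8.52%, 13.1% and 5.93% of all probes). After Benjamini-Hochberg it called 0 members and also 0 of all probes at every time, so it says nothing particular about the members. Fits of limma to the arrays of a single time gave 0 members at 48, 148 and 296 h. Centring on the other probes numbered 8 and 9 was chosen after seeing the data and shifts each time by 0.025 to 0.359 downward. On the sparse arrays the centre rests on only 66 to 111 of the 129 probes. It gave 1 at 24 h, 8 at 48 h and 8 in late minus early, a median late minus early of -0.125, and medians of -0.126 at 4 h, -0.102 at 8 h, -0.114 at 18 h, -0.233 at 48 h, -0.196 at 148 h and -0.148 at 296 h. Under it the mean effects turned to -0.0011 for Rpl5, -0.036 for Rpl4, -0.021 for Rpl6, -0.041 for Rps28-ps1, -0.0018 for Rps3, -0.061 for Rps29, -0.069 for Rpl24, -0.021 for Rps20, -0.061 for Rpl23 and -0.031 for Rpl18. The cause of these changes was not tested. Outside array weights, the t-test and the replicate block in late minus early, this section does not give the share of all probes called. Whether members moved more than other probes under those settings cannot be read from these counts.

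With the replicate number as a block, 4 members passed at 296 h and 3 in late minus early, where 272 of all 2327 probes passed. The numbers did not pair the arrays (same-number pairs had a median r of -0.0064, and 7 of 23 arrays correlated best with their own number).

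Leaving out each array gave 0 calls at 4, 8, 12 and 18 h, 0 to 1 at 24 h, 2 to 3 at 48 h, 4 to 10 at 148 h (fewest without 148 h replicate 1), 0 to 8 at 296 h (fewest without replicate 2), 22 to 34 in the mean effect, 1 to 7 in late minus early and 0 to 1 in the F-test. A time left with 1 array was assumed to vary like the others. The median late minus early ranged from 0.073 to 0.131. The median ratio ranged from -0.030 to -0.016 at 4 h, -0.0083 to 0.024 at 8 h, -0.015 to 0.126 at 12 h, -0.015 to 0.026 at 18 h, -0.139 to -0.055 at 24 h, 0.030 to 0.074 at 48 h, 0.140 to 0.196 at 148 h and 0.095 to 0.187 at 296 h. Large minus small ranged from -0.0021 to 0.0054 at 4 h, -0.059 to -0.035 at 8 h, -0.112 to -0.055 at 12 h, -0.070 to -0.0055 at 18 h, -0.082 to -0.063 at 24 h, -0.137 to -0.051 at 48 h, -0.037 to 0.011 at 148 h, -0.096 to -0.012 at 296 h and -0.028 to 0.0023 in late minus early.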
